A study of Mus musculus with 18 samples.

Results

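Neurofilaments, peripherin and tubulins are the subunit genes of the intermediate filaments and microtubules that fill sensory axons, and 10 of them were followed here across all samples. They were chosen by symbol as the rows of the deposited count table named Nefl, Nefm, Nefh, Ina, Prph, Tuba1a, Tubb3, Tubb2a, Tubb2b and Tubb6, and all 10 were found among its 15730 genes. The tissue was the dorsal root ganglia that supply the sciatic nerve, where the cell bodies of sensory neurons sit, taken 24 hours after surgery from C57BL/6 mice aged 6 to 8 weeks. Each of the 18 samples was a pool of ganglia from 2 mice, and there were 3 samples in each of 6 groups. The sex of the mice was not given in the sources used here, no genotype beyond the strain was stated, and how each injury was made (cut or crush) was not stated either. SNA_Saline mice had a sciatic nerve injury with saline applied, and Sham_Saline mice had the sham operation with saline. SNA_NAC mice had the sciatic injury with 30 mM N-acetyl-cysteine (NAC, a thiol antioxidant), and Sham_H2O2 mice had the sham operation with 13 mM hydrogen peroxide. The sample titles spell that group with a zero, Sham_H202. DCA mice had an injury of the dorsal columns of the spinal cord, where the central axons of these neurons run. LAM mice had a laminectomy, the bone removal that exposes the cord, without that injury. Nothing in the labels says that the mice of one group's pools were littermates or were operated together, so p-values measure the spread between these pools. A whole ganglion holds neurons with their satellite glia, Schwann cells, vessels and immune cells, so fewer cells of a type and less RNA per cell cannot be told apart in these bulk values.

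Neurofilaments are obligate mixtures of a light, a medium and a heavy chain (Nefl, Nefm, Nefh), with alpha-internexin (Ina) or peripherin (Prph) as a further partner, and they set the calibre of large axons. Microtubules are polymers of alpha- and beta-tubulin pairs, and the genes of each family encode near-identical proteins called isotypes, of which Tubb3 is the one best known as a neuronal marker. Classical work on rodent ganglia described falling neurofilament transcripts and rising peripherin and tubulin transcripts in the days after a peripheral axon is cut.

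Total counts per sample ran from 6472476 (Sham_H2O2 replicate 3) to 42435331 (SNA_NAC replicate 1). The 12 neuron marker genes checked, such as Rbfox3 and Scn10a, were all measured, and their summed level was 5390 to 6302 CPM (counts divided by the library's total after TMM scaling) over the 18 samples. Sums of other cell types' markers varied more, with 6712 to 10835 CPM for 8 myelinating Schwann cell genes and 8.01 to 1527 CPM for 8 skeletal muscle genes, both extremes of the muscle sum being in Sham_Saline samples. Of 6 axotomy marker genes fixed as a label check, 5 passed the test as higher in SNA_Saline than in Sham_Saline (Atf3, Gadd45a, Sprr1a, Sox11 and Jun).

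One member, Tubb6, passed the test after sciatic nerve injury. Tubb6 encodes a beta-tubulin of low abundance in nervous tissue. Its levels were 34.4, 32.7 and 34.4 CPM in the 3 SNA_Saline samples and 12.6, 23.4 and 13.9 CPM in the 3 Sham_Saline samples. In SNA_NAC they were 33.1, 29.8 and 31.0 CPM, and in Sham_H2O2 they were 15.3, 17.5 and 14.3 CPM. Every sample with an injured sciatic nerve therefore lay above every sample of the other 4 groups. The share of all genes with such a separation was not counted. DCA samples held 10.8, 11.4 and 14.9 CPM and LAM samples 9.21, 10.8 and 12.3 CPM, and these 2 groups overlapped. The values rest on 89 to 1396 counts per sample. Of the marker lists for other cell types, the summed macrophage markers (7 of 8 measured, Adgre1 not being in the count table) were also higher in SNA_Saline (66.1 to 71.3 CPM) than in Sham_Saline (58.9 to 62.2 CPM). The sum was 59.3 to 72.9 CPM in SNA_NAC, 49.5 to 68.8 in Sham_H2O2 and 57.3 to 69.2 in LAM, each overlapping both of those ranges. In DCA it was 54.5 to 58.4 CPM. The part of macrophages in the Tubb6 result was not tested.

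Between SNA_Saline and Sham_Saline, Tubb6 was higher by 1.02 on the log2 scale (SE 0.194), a 2.03-fold difference, with an adjusted p of 0.00696 by edgeR's quasi-likelihood test over 15730 genes. Its value over the 18 alternatives ran from 0.851 (without Sham_Saline replicate 1) to 1.40 (GC and length offsets with a replicate block). In that comparison 2.73% of all genes passed the threshold of 0.05, and 2.16% passed it as higher. The call was kept in 17 of 18 alternatives and lost when only the 6 samples compared were fitted (log2 fold change 1.02, adjusted p = 0.202). The fit without a filter, an alternative in every comparison, repeats the main fit because every gene passed the filter. It is counted among those 17. Taking the injured sciatic groups together (SNA_Saline and SNA_NAC, 6 samples) against both sham groups (Sham_Saline and Sham_H2O2, 6 samples), the difference was 1.00 (SE 0.138, adjusted p = 0.000234), and it passed in all 24 alternatives. There 5.21% of genes were called and 3.76% were called higher, and the arms differ in the agent applied as well as in the injury. Groups did not overlap for Tubb6 in this 6 against 6 comparison, where 3.38% of all genes showed no overlap.

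SNA_NAC samples compared with Sham_Saline, which share their controls with the first comparison, gave a Tubb6 difference of 0.91 (SE 0.192, adjusted p = 0.0141). Among all genes 3.32% were called and 2.47% were called higher. This call was lost without Sham_Saline replicate 3 (adjusted p = 0.0693), without SNA_NAC replicate 1 (0.0519) or replicate 3 (0.0510), and with only the 6 samples compared in the edgeR fit (0.201). SNA_NAC minus SNA_Saline was -0.11 for Tubb6 (SE 0.190), which did not pass.

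**Figure D1:**
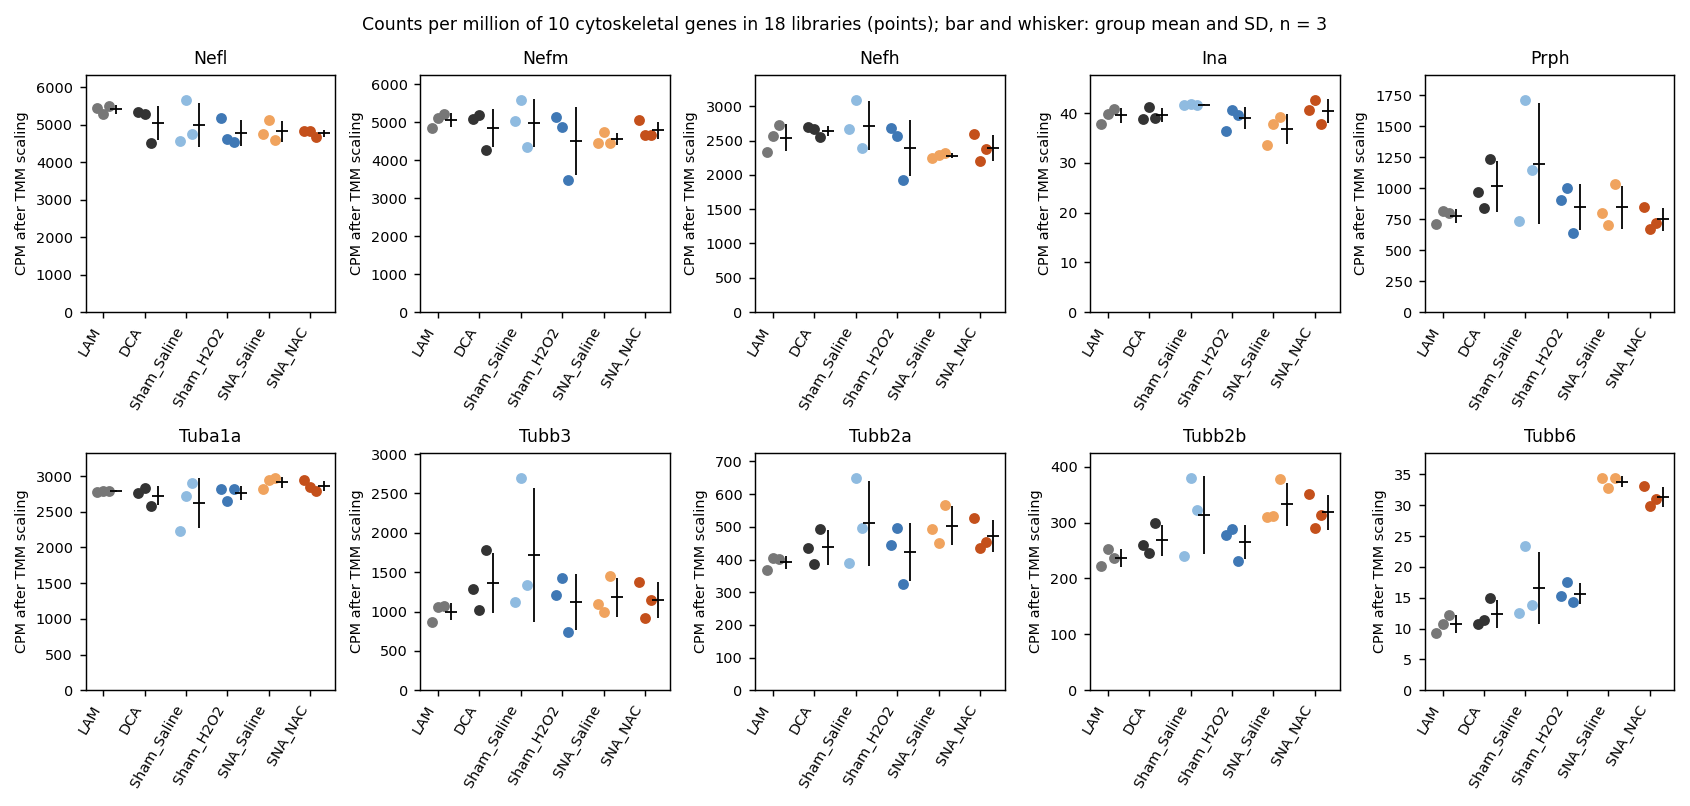
CPM after TMM scaling (vertical axis, starting at 0) of the 10 genes in 18 libraries; points are samples in replicate order and the bar with whisker is the group mean and SD (n = 3). The 6 Tubb6 points of SNA_Saline and SNA_NAC lie between 29.8 and 34.4 CPM, above the other 12, and 1 Sham_Saline sample stands high for Prph, Tubb3 and Tubb2a. That sample is also the highest of the 18 for Nefl, Nefm, Nefh and Tubb2b.

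The difference between the responses to sciatic and to dorsal column injury was tested directly, as (SNA_Saline minus Sham_Saline) minus (DCA minus LAM). For Tubb6 it was 0.82 on the log2 scale (SE 0.276), with an adjusted p of 0.0899 by edgeR, so it missed the threshold. It passed in only 4 of 24 alternatives, and the largest adjusted p among the 24 was 0.208. Those that passed include leaving out Sham_Saline replicate 2, the high Tubb6 sample of that group (1.16, adjusted p = 0.0151 by edgeR). Adding GC and length offsets was another (1.504, adjusted p = 6.76e-05). In this comparison 1.61% of genes were called and 31.4% had an unadjusted p under 0.05, beside 0 and 3 of the 10 members (Tubb6, Prph and Tubb3). DCA minus LAM alone was 0.20 (SE 0.198, adjusted p = 0.671) for Tubb6, and -0.11 (SE 0.125) with those offsets. Sham_Saline exceeded LAM by 0.62 (SE 0.197) without passing the test (adjusted p = 0.104 by edgeR, 0.0498 by DESeq2), so the controls of the 2 injuries were not shown to be equal.

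Levels were compared between genes by FPKM, which divides by transcript length. Tuba1a, the main neuronal alpha-tubulin, was the highest member at a mean of 1665 FPKM over 18 samples and ranked 12th of the genes in the count table. Nefl followed at 1449, then Nefm at 817, Tubb3 at 665, Nefh at 617, Prph at 480, Tubb2a at 285 and Tubb2b at 149 FPKM. Ina and Tubb6 were far lower, at 12.05 and 11.3 FPKM. Ranges over the 18 samples of neighbours in this order overlapped except between Nefl and Nefm and between Tubb2b and Ina. Tubb3 and Nefh exchanged places from sample to sample, Tubb3 being higher in 9 of 18, whereas Prph exceeded Tubb2a and Tubb2a exceeded Tubb2b in all 18. The order of the 3 neurofilament chains, light over medium over heavy, held for the group means of all 6 groups.

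**Figure D2:**
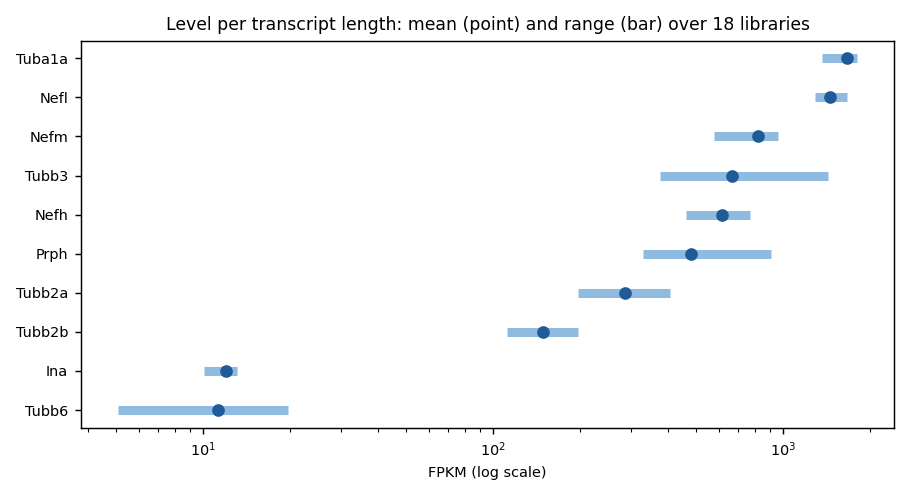
Mean (point) and range (bar) over 18 libraries of the deposited FPKM of each gene, on a log axis. The 10 genes span from 11.3 FPKM (Tubb6) to 1665 FPKM (Tuba1a), and Tubb6 and Tubb3 have the longest bars.

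The light chain gene Nefl (GRCm38 chromosome 14, 68083863 to 68089095) and the medium chain gene Nefm (68082590 to 68124846) lie on opposite strands, and the annotated span of Nefm covers Nefl. The kit marks strand, per the labels, but the strand setting of the counting is not given in the sources used here, so the treatment of reads from the overlap is unknown. Nefl levels were 4747, 5110 and 4588 CPM in SNA_Saline and 4572, 5655 and 4736 CPM in Sham_Saline, which overlap. The difference was -0.05 (SE 0.107, adjusted p = 0.787 by edgeR). Over all 18 samples Nefl varied only 1.25-fold between the lowest and the highest. Nefm was at 4457, 4749 and 4460 CPM in SNA_Saline and at 5024, 5582 and 4335 CPM in Sham_Saline, with a difference of -0.13 (SE 0.138, adjusted p = 0.567). Its lowest sample was Sham_H2O2 replicate 3, at 3481 CPM.

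The heavy chain gene Nefh (chromosome 11, 4938754 to 4948064) held 2241, 2286 and 2316 CPM in SNA_Saline and 2666, 3094 and 2386 CPM in Sham_Saline. Here the groups did not overlap, the injured samples being lower, yet the difference of -0.25 (SE 0.127) did not pass the test (adjusted p = 0.247 by edgeR). No overlap was also seen for Ina, which encodes alpha-internexin (chromosome 19, 47014698 to 47025327), at 33.5, 37.8 and 39.2 CPM in SNA_Saline against 41.6, 41.8 and 41.7 CPM in Sham_Saline. Its difference was -0.18 (SE 0.0908, adjusted p = 0.249). With GC and length offsets both values were positive, 0.20 for Nefh and 0.09 for Ina, and neither passed. The summed markers of large myelinated sensory neurons, the cells richest in Nefh, were 708.5 to 743 CPM in SNA_Saline and 701 to 1049 CPM in Sham_Saline, with all 10 genes at a negative log2 fold change and none called, and their part in the Nefh values was not tested. Counting Tubb6, 3 of 10 members had groups that did not overlap, beside 19.1% of all genes. The SNA_NAC samples, at 2590, 2202 and 2384 CPM for Nefh and 40.7, 42.7 and 37.8 CPM for Ina, overlapped Sham_Saline for both genes. For SNA_NAC against Sham_Saline 1 member, Tubb6, did not overlap, beside 21.2% of genes.

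Peripherin (Prph, chromosome 15, 99055174 to 99058978) is the filament protein of small sensory neurons and of peripheral neurons generally. Its levels were 733, 1711 and 1149 CPM in Sham_Saline and 796, 700 and 1036 CPM in SNA_Saline. DCA samples held 966, 838 and 1237 CPM, and LAM samples 707, 818 and 798 CPM. A single sample, Sham_Saline replicate 2, had more than any other sample, and the lowest, at 640 CPM, was Sham_H2O2 replicate 3. Prph was lower in SNA_Saline than in Sham_Saline by 0.50 on the log2 scale without passing the test (value -0.50, SE 0.247, adjusted p = 0.234). Leaving out Sham_Saline replicate 1, the low sample of its group, gave -0.76 with an adjusted p of 0.0361 by edgeR, and in that setting the number of genes called rose from 430 to 2548. For SNA_NAC against Sham_Saline the Prph difference was -0.68 (adjusted p = 0.119), or -0.94 without that sample (adjusted p = 0.00697). With GC and length offsets, SNA_Saline minus Sham_Saline was 0.06 (SE 0.0652) for Prph.

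Among the tubulins, Tuba1a (chromosome 15, 98949837 to 98953703) was at 2824, 2947 and 2968 CPM in SNA_Saline and at 2237, 2727 and 2901 CPM in Sham_Saline. The ranges overlapped and the difference was 0.15 (SE 0.0982, adjusted p = 0.342 by edgeR). Of the 1704 windows of 100 bases (the read length) in its longest annotated transcript, 65.1% occur identically in a transcript of another gene, among them Tuba1c, Tuba1b and several predicted genes, so its counts depend on how shared reads were treated. Tubb3 (chromosome 8, 123411424 to 123422015), Tubb6, Prph, Ina and the 3 neurofilament genes had no such window. Tubb3 levels were 1095, 990 and 1455 CPM in SNA_Saline against 1125, 2692 and 1340 CPM in Sham_Saline. Ina, Tuba1a and Tubb3 also overlap another annotated gene (Nt5c2 on the opposite strand, Gm49450 and Gm20388 on the same strand). The Tubb3 difference was -0.54 (SE 0.302, adjusted p = 0.282), and the highest sample was again Sham_Saline replicate 2. For SNA_NAC against Sham_Saline it was -0.58 (adjusted p = 0.210), or -0.81 without Sham_Saline replicate 1 (adjusted p = 0.0469 by edgeR).

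Tubb2a (chromosome 13, 34074274 to 34078007) and Tubb2b (34126748 to 34130466) are neighbouring copies. Their coding sequences, of 1338 bases each, are identical at 96.5% of positions and share an unbroken run of 551 bases, and 36.9% of Tubb2a windows and 27.7% of Tubb2b windows occur in another gene. The pair is shown over coding bases 112 to 171, the stretch of 60 bases where they differ most, since such bases are what lets a read be assigned to one copy. Capitals mark the 10 positions that differ.

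Tubb2a: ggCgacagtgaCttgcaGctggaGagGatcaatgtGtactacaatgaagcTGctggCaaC
Tubb2b: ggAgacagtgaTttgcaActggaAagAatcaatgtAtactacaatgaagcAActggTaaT

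Tubb2a levels were 492, 450 and 567 CPM in SNA_Saline and 389, 649 and 496 CPM in Sham_Saline, a difference of -0.02 (SE 0.175, adjusted p = 0.945 by edgeR). Tubb2b levels were 309, 312 and 377 CPM against 239, 379 and 323 CPM, a difference of 0.08 (SE 0.148, adjusted p = 0.741). Neither gene separated the groups. With GC and length offsets Tubb2a passed the test in the 2 injured groups against Sham_Saline (0.25, SE 0.0717, adjusted p = 0.0445 for SNA_Saline) and in the 6 against 6 comparison (0.26, SE 0.0507, adjusted p = 0.00243), where without offsets it was 0.07 (SE 0.124). Over the 18 samples the levels of the pair correlated at r = 0.93, given as a description, and what shared reads add to this was not tested.

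**Figure D3:**
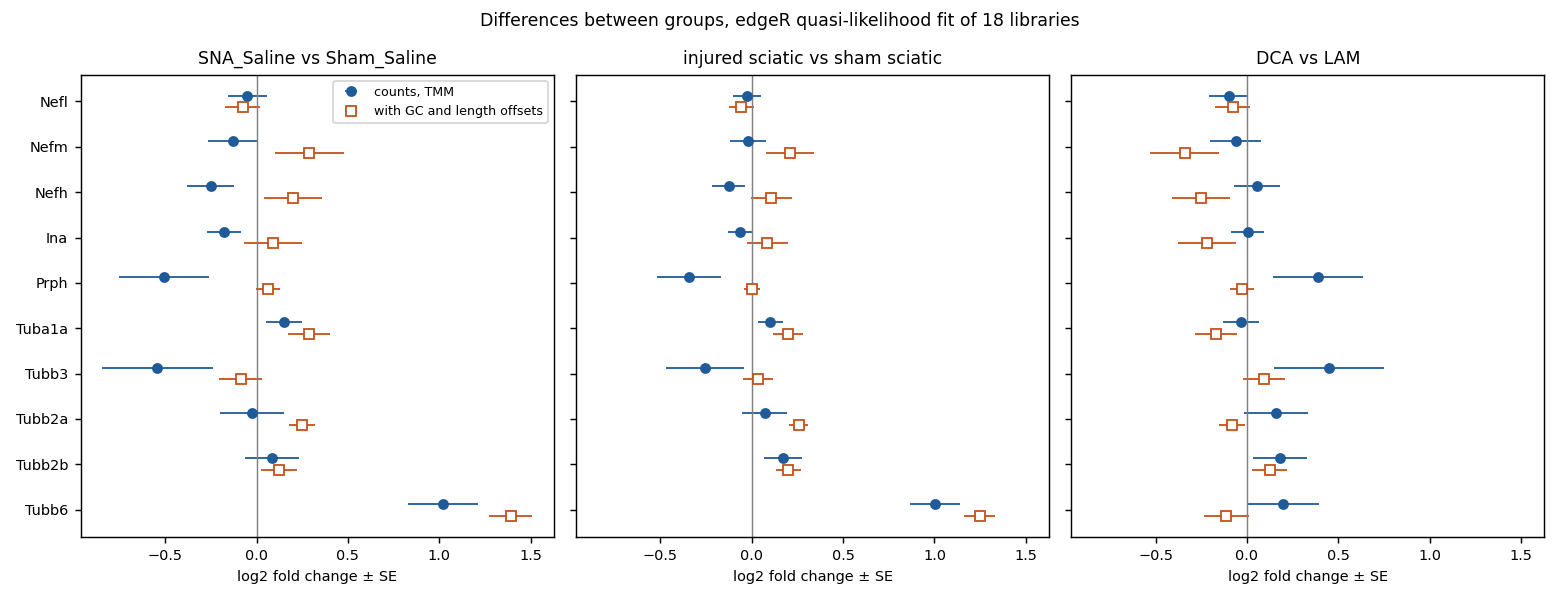
Log2 fold changes with standard errors (horizontal axis) of the 10 genes in 3 comparisons, from counts alone (filled) and with offsets for GC content and transcript length (open squares). Tubb6 stands at 1.02 and 1.00 in the first 2 panels, and the open squares of Prph lie close to 0 in all 3.

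A share within a library does not depend on scaling between libraries. The shares were not adjusted for differences between libraries in how levels moved with GC content, which are described below. Of the summed FPKM of 8 beta-tubulin genes, Tubb3 made up a median of 36.9%, Tubb2a 16.6%, Tubb4b 14.9%, Tubb5 13.1%, Tubb4a 8.68%, Tubb2b 8.54% and Tubb6 0.477%. In SNA_Saline the Tubb6 share was 1.16%, 1.24% and 0.944%, and in SNA_NAC 0.959%, 1.18% and 1.06%. Sham_Saline samples had 0.452%, 0.430% and 0.405%, and Sham_H2O2 samples 0.4997%, 0.508% and 0.704%. The mean was 1.09% ± 0.123 (SD, n = 6) in injured and 0.4998% ± 0.108 (SD, n = 6) in sham sciatic samples, with no overlap. The exact 2-sided permutation test gave p = 0.00216, the smallest that 6 against 6 allows, or 0.0216 adjusted over the 10 within-library values tested in that comparison. By share, Sham_Saline replicate 2 did not stand apart for Tubb6.

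The share of Tubb2a was 17.99% ± 0.939 in injured and 15.8% ± 1.44 in sham sciatic samples (SD, n = 6 each), with an exact permutation p of 0.00866 (adjusted 0.0433). The sham sample nearest the injured ones was Sham_H2O2 replicate 3, at 17.7%, and the ranges overlapped. The lowest share of all, 13.2%, was that of Sham_Saline replicate 2. LAM samples, which had no sciatic injury, were at 16.9% ± 0.577 and Sham_Saline samples at 14.9% ± 1.47 (SD, n = 3 each). Leaving out 1 sample took the adjusted p above 0.05 in 11 of 12 cases, up to 0.0866, where 6 samples are set against 5. For Tubb2b the shares were 9.90% ± 0.605 and 8.19% ± 1.33 (SD, n = 6 each), exact p = 0.0152 (adjusted 0.0505), and for Tubb3 36.0% ± 1.42 and 38.6% ± 4.28 (exact p = 0.177). An exact permutation test of 3 samples against 3 cannot go below p = 0.10, so shares within single groups were not called. The log2 ratio of summed neurofilament FPKM (Nefl, Nefm, Nefh) to summed tubulin FPKM (Tuba1a, Tubb2a, Tubb2b, Tubb3, Tubb6) was -0.03 ± 0.104 in injured and 0.04 ± 0.164 in sham sciatic samples (SD, n = 6 each), a difference smaller than either spread.

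**Figure D4:**
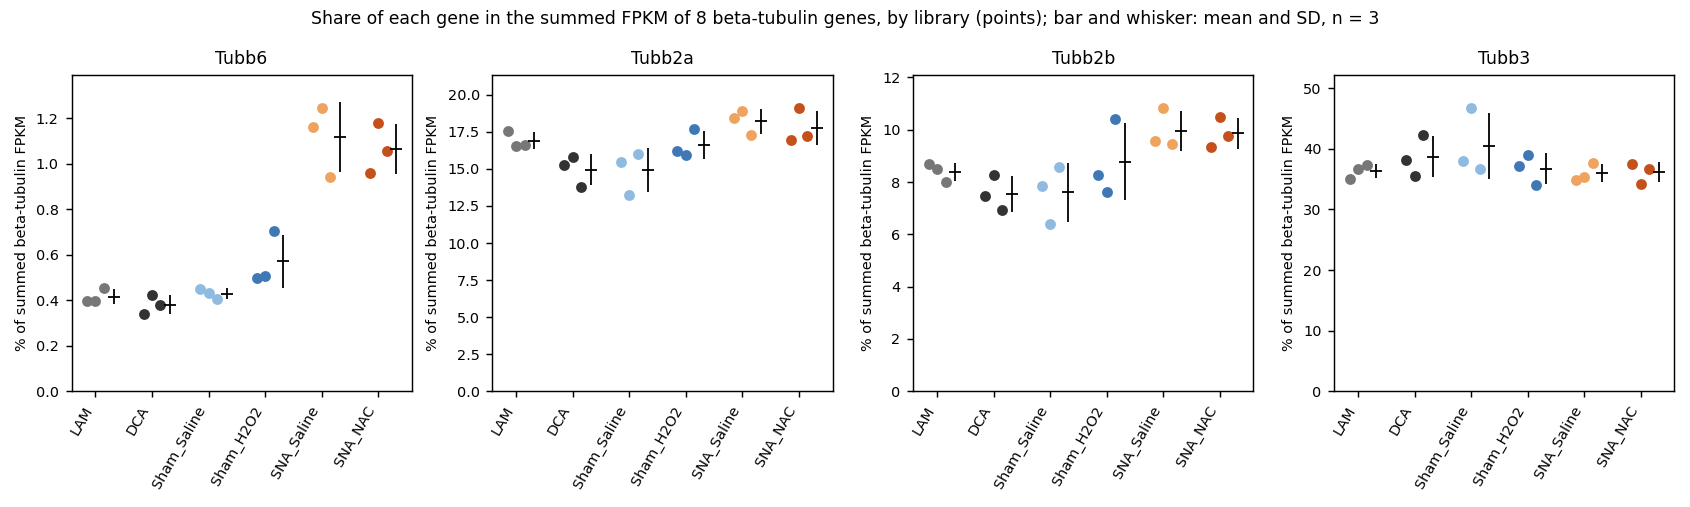
Percent of the summed FPKM of 8 beta-tubulin genes contributed by 4 of them in each library; points are samples, bar and whisker are group mean and SD (n = 3), and all axes start at 0. Tubb6 lies at 0.944% to 1.24% in the 6 samples with sciatic injury and at or under 0.704% elsewhere.

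Among all intermediate filament members, Nefl gave a median 43.2% of the summed FPKM of the 5 genes, Nefm 24.7%, Nefh 18.3%, Prph 12.9% and Ina 0.356%. The share of Prph ranged from 11.1% to 21.1%.

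The spread between replicates differed strongly among the members. The within-group SD of log2 CPM was 0.418 for Tubb3 and 0.341 for Prph, and 0.0755 to 0.103 for Ina, Tuba1a and Nefl, beside a median of 0.238 over all genes. A slope was computed for each library that measures how its gene levels moved with the GC content of the transcript, in log2 units per SD of GC content. It ran from -0.219 in Sham_H2O2 replicate 3 to 0.431 in Sham_Saline replicate 2, the same samples that were lowest and highest for Prph and Tubb3. Sham_Saline replicate 2 was also the highest sample for Nefl, Nefm, Nefh, Tubb2a and Tubb2b. Sham_H2O2 replicate 3 was also the lowest for Nefm, Nefh and Tubb2a. The slope comes from these same gene levels, the members included, so p-values for a member's correlation with it are only descriptive. How many of all genes correlate with it as closely was not counted. Across the 18 samples the level of Prph correlated with this slope (Pearson r = 0.98, Spearman rho = 0.96, both permutation p = 1e-05, the smallest the 100000 permutations can give, adjusted 5e-05 over the 10 members). For Tubb3 r was 0.97 and rho 0.94 with the same p-values, and without the 2 samples farthest from the median slope r was 0.95 for Prph and 0.93 for Tubb3. After group means were subtracted it was 0.98 and 0.97. The replicate number equals the sequencing lane, and within the 3 lanes (6 samples each) r was 0.83, 0.99 and 0.99 for Prph and 0.98, 0.99 and 0.95 for Tubb3.

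Over all 18 samples Tubb2a had r = 0.81 (rho 0.75, permutation p = 7e-05 and 0.000550), Tubb2b 0.62 (rho 0.56, adjusted permutation p = 0.0116 and 0.0442) and Nefh 0.62 (rho 0.51, adjusted permutation p = 0.0116 and 0.0649). Without the 2 farthest samples these were 0.72, 0.53 and 0.46, and within lanes Tubb2a ranged from 0.62 to 0.89. After group means were subtracted r was 0.98 for Tubb2a, 0.95 for Tubb2b and 0.58 for Nefh, so within groups Tubb2a and Tubb2b followed the slope about as closely as Prph and Tubb3. Nefl, Nefm, Ina and Tuba1a had r between -0.15 and 0.27 with no adjusted p under 0.05. Tubb6 formed separate clusters of injured and other samples, so no pooled value is given, and after group means were subtracted its r was 0.82. The GC content of the longest transcript was 60.8% for Prph, 58.4% for Nefh, 57.9% for Tubb3, 57.8% for Nefm and 56.6% for Tubb6. It was 55.5% for Ina, 55.2% for Tubb2a, 53.2% for Tuba1a, 51.2% for Tubb2b and 48.8% for Nefl. The part of GC content in the members' correlations was not tested. The standard error of Prph in SNA_Saline against Sham_Saline fell from 0.247 to 0.0652 once GC and length offsets were fitted. It also fell for Nefl, Tubb3, Tubb2a, Tubb2b and Tubb6. It rose for Ina (0.0908 to 0.159), Nefm (0.138 to 0.188), Nefh (0.127 to 0.157) and Tuba1a (0.0982 to 0.115). What made the slopes differ between libraries was not tested.

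**Figure D5:**
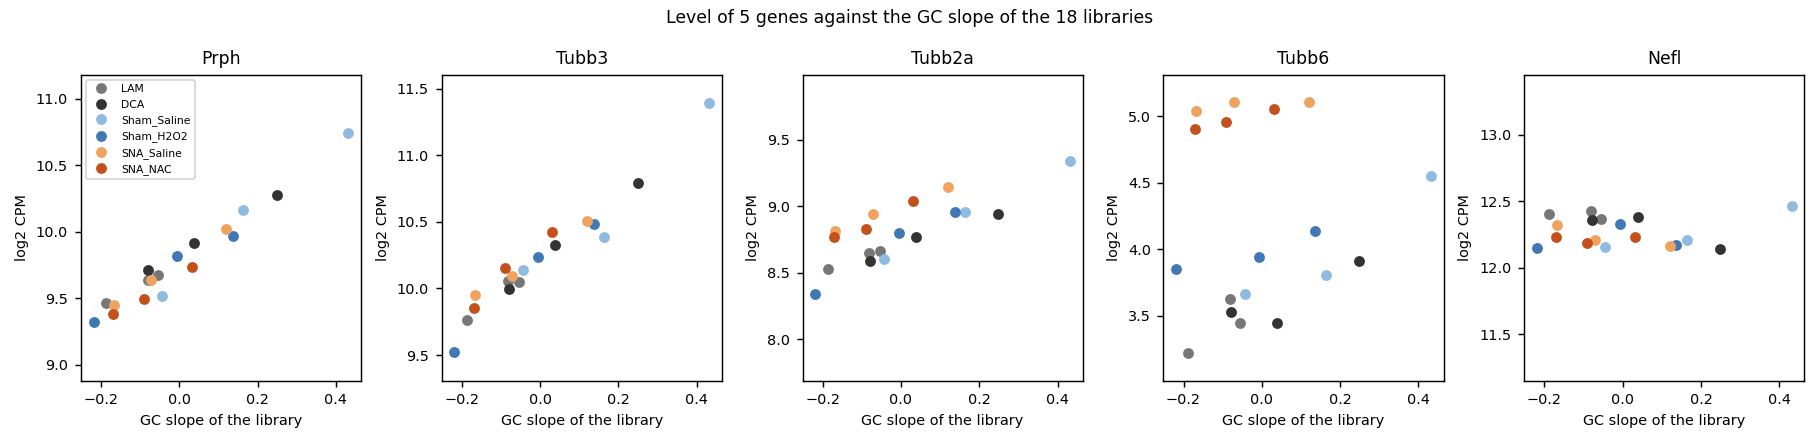
Log2 CPM of 5 genes (vertical axes, each spanning 2.3 log2 units) against the GC slope of each of 18 libraries (log2 per SD of transcript GC content), coloured by group. Prph and Tubb3 lie near a line across all groups, Nefl is flat, and the 6 Tubb6 points with sciatic injury form a band above the rest.

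Prph, Tubb3 and Tubb2a correlated over the samples (r = 0.94 for Prph with Tubb3, 0.87 for Tubb3 with Tubb2a and 0.77 for Prph with Tubb2a), and the bases before their annotated starts are shown. After group means were subtracted, their r with the GC slope was 0.98, 0.97 and 0.98 (Prph, Tubb3 and Tubb2a in turn). Whether these genes share any control was not tested. Tubb2b correlated with these 3 at 0.58, 0.69 and 0.93 (Prph, Tubb3 and Tubb2a in turn), and no promoter of it is shown. The sequences are from RefSeq (GRCm38.p6), in a set used here in which 5 of the members were matched. Each stops before the first annotated start of its gene. The windows were searched on both strands for 5 motifs, whose matches are in capitals: the TATA box as TATAAA, the GC box as GGGCGG, the CCAAT box by its name's letters, the CRE (the site of CREB and ATF factors) as TGACGTCA, and the AP-1 site as TGANTCA. No match overlaps another.

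Prph, chr15:99054924-99055173, plus strand: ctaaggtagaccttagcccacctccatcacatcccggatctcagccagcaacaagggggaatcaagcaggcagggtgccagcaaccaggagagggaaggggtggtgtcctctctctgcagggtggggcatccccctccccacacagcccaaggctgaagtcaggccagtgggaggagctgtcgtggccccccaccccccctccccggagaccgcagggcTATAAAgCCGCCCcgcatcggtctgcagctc
Tubb3, chr8:123411303-123411423, plus strand: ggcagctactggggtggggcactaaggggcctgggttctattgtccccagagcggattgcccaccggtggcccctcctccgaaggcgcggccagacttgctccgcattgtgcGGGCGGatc
Tubb2a, chr13:34078009-34078258, minus strand: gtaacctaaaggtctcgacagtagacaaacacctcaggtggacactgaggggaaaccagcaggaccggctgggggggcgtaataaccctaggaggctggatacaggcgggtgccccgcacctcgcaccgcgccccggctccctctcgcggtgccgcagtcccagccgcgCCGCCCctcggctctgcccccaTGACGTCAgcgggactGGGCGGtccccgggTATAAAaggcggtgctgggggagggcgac

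The windows of Prph and Tubb2a are 250 bases and hold a TATAAA match, 25 and 23 bases before the end of the window, a motif found in 12.4% of all 32851 promoter windows of that length. All 3 hold GGGCGG on a strand, as do 32.7% of promoters. The window of Ina, matched but not shown, holds GGGCGG as well. Levels of Ina correlated with Prph, Tubb3 and Tubb2a at r = 0.20, 0.18 and 0.006. Tubb2a alone of the 3 shown holds TGACGTCA, found in 1.55% of promoters, and none of the 3 holds TGANTCA (6.75%) or CCAAT (33.8%). The Tubb3 window is 121 bases and so had fewer places for a match. These are matches of letters and no binding was measured.

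Injury of the dorsal columns gave no called member. The edgeR test called 0 genes for DCA against LAM (0% of genes; DESeq2 called 2), 5.04% of genes had an unadjusted p under 0.05, and 0 of 10 members did. The largest member differences were 0.45 for Tubb3 (SE 0.302) and 0.39 for Prph (SE 0.246), both with an adjusted p of 0.624. Prph was the only member whose groups did not overlap (higher in DCA), beside 21.7% of all genes, and with GC and length offsets its difference was -0.03 (SE 0.0652).

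SNA_NAC differed from SNA_Saline by at most 0.18 on the log2 scale in any of the 10 members, the largest being Prph at -0.18 (SE 0.246) and Ina at 0.13 (SE 0.0906). For SNA_NAC against SNA_Saline edgeR called 0 genes (0%), as did DESeq2, 2% of genes had an unadjusted p under 0.05 beside 0 members, and groups failed to overlap for 0 members beside 14.9% of genes. Sham_H2O2 against Sham_Saline gave negative values for 9 of 10 members, the largest being Tubb3 at -0.61 (SE 0.303) and Prph at -0.50 (SE 0.247), both with an adjusted p of 0.449 by edgeR. Without Sham_Saline replicate 2 and Sham_H2O2 replicate 3 these were 0.10 and 0.02, and with GC and length offsets 6 of those 9 members had positive values. In that comparison edgeR called 0% of genes (DESeq2 called 4 genes), 9.15% had an unadjusted p under 0.05 beside 0 members, and 1 member (Ina, lower) did not overlap beside 5.43% of genes.

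The 2 surgical controls, set against each other, had more members at an unadjusted p under 0.05 than any other comparison. Sham_Saline exceeded LAM by 0.79 for Tubb3 (SE 0.303), 0.63 for Prph (SE 0.247), 0.62 for Tubb6, 0.41 for Tubb2b (SE 0.148) and 0.38 for Tubb2a (SE 0.175). None of these 5 passed the adjusted threshold (adjusted p from 0.104 to 0.156 by edgeR), though all had an unadjusted p under 0.05, as did 30.3% of genes, while 0.0699% were called (11 genes, or 6 with a replicate block). The groups failed to overlap for Ina, Tubb3 and Tubb6, higher in Sham_Saline, beside 30.6% of all genes. Without Sham_Saline replicate 1 all 5 passed (adjusted p from 0.0236 to 0.0285) and calls over all genes rose from 11 to 5009. With GC and length offsets Tubb2a was at -0.01, Prph at -0.10, Tubb3 at 0.18, Tubb6 at 0.13 and Tubb2b at 0.32, and none passed.

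Other genes of the same systems were read from lists, beside 2.73% of all genes called in SNA_Saline against Sham_Saline. The lists were not tested as sets. Of 11 other tubulin genes measured, 1 passed as higher in SNA_Saline than in Sham_Saline and none as lower, with a median log2 fold change of -0.38 beside -0.03 for all genes. That gene was Tuba1c, an alpha-tubulin, at 16.4, 13.3 and 18.4 CPM against 6.01, 10.2 and 9.57 CPM. Its difference was 0.91 (SE 0.181, adjusted p = 0.00980 by edgeR), and the groups did not overlap. Part of its sequence is shared with Tuba1a, so its counts are uncertain in the same way. Each of the other 10 had a negative value, from -0.08 for Tuba1b to -0.76 for Tubg1, a gamma-tubulin that nucleates microtubules, and none passed the test. Without nerve injury the list median was also negative, at -0.35 in Sham_H2O2 against Sham_Saline (2 of 11 positive). It was 0.41 in Sham_Saline against LAM (9 positive) and 0.27 in DCA against LAM (10 positive). What set these medians was not tested.

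In the intermediate filament list, 1 of 8 measured genes passed as higher and none as lower, with a median of -0.12. It was Gfap, the filament protein of reactive glia, at 4.16, 3.999 and 6.84 CPM in SNA_Saline and 1.38, 1.43 and 2.31 CPM in Sham_Saline (log2 fold change 1.58, SE 0.287, adjusted p = 0.00497). Vash2, a vasohibin that removes the last tyrosine of alpha-tubulin, was the only gene called of 27 for tubulin folding, assembly and modification (list median 0.01). It had 12.5, 11.9 and 10.6 CPM against 4.38, 4.63 and 5.29 CPM, a difference of 1.30 (SE 0.172, adjusted p = 0.000303). Stmn4, a stathmin that binds tubulin dimers, was the only one of 36 microtubule-binding proteins (list median 0.02), at 70.3, 64.1 and 69.7 CPM against 18.8, 31.2 and 29.5 CPM (1.36, SE 0.157, adjusted p = 7.87e-05). For Vash2 and Stmn4 the injured and control samples lay far apart.

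None of 13 neurofilament partners and turnover genes passed in SNA_Saline against Sham_Saline by edgeR (list median -0.08). In the 6 against 6 comparison, Cdk5r1, the activator of the neurofilament kinase Cdk5, fell by 0.28 (value -0.28, SE 0.0739, adjusted p = 0.0321), and Dclk1, a doublecortin-like microtubule binder, rose by 0.43 (SE 0.115, adjusted p = 0.0388). Tuba1c, Gfap, Vash2 and Stmn4 passed there too, with values of 0.88, 1.46, 1.18 and 1.21, beside 5.21% of all genes called. These lists gave no called gene for DCA against LAM, SNA_NAC against SNA_Saline or Sham_H2O2 against Sham_Saline.

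For each member the genes with the most similar profile over the 18 samples were found among genes with a mean count of at least 50, as a description. Tubb6 was most like Smim3 (Pearson r = 0.98) and Rnf122 (0.97). Prph was most like Emc10 and Npdc1 (both 0.99), Tubb3 like Pcbp4 and Gpc1 (both 0.99), Tubb2a like Mvp and Sqstm1 (both 0.97) and Tubb2b like Maz and Gadd45g (both 0.97). Nefm was nearest to Ndrg4 (0.94) and Syt11 (0.92), and Nefh to Dync1i1 (0.93), a dynein intermediate chain of the motor that carries cargo toward the cell body. Nefl had weaker matches, Rtn1 (0.80) and Ankrd46 (0.75), as did Ina with Kmt2d (0.79) and Gm12802 (0.76). Tuba1a was closest to Acat2 (0.89) and Fdft1 (0.84), an enzyme of sterol synthesis. These libraries share the depth and GC differences described above.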

How the data were processed

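RNA from 18 pooled ganglion samples was sequenced with a strand-marking mRNA kit, per the labels' protocols. The authors deposited whole-number counts per gene and FPKM values, with TopHat2 2.0.12, Bowtie2 2.2.3, SAMtools 0.1.19, HTSeq 0.6.0, edgeR 3.8.6, limma 3.22.7, R 3.1.1, FastQC 0.10.1 and build mm10 named in the submitters' processing notes, with no role or order given. For the 10 members the deposited FPKM equals the count times 1 factor per gene and 1 per sample, and so adds no reads to the count.

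The deposited counts went into edgeR's quasi-likelihood test (version 4.0.16, R 4.3.3, TMM scaling, filterByExpr), all 18 samples in one fit without a block, and Benjamini-Hochberg adjustment over the 15730 genes tested, all of which passed the filter; the threshold was 0.05. Each standard error was obtained as |log2 fold change| / sqrt(F). For log2 CPM the prior count was 2. The common BCV (spread between samples beyond counting error) came to 17.4%. All 10 members passed the filter on low counts. The scripts were tested on simulated data. Shares within a library were compared by exact 2-sided permutation tests (scipy 1.17.1) and FPKM levels between genes were not tested.

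Replicate numbers equal lane numbers and mark different mice. Between Sham_Saline and LAM the deviations of same-numbered samples from their group means correlated at 0.24, 0.42 and 0.27, so that comparison is also given with a replicate block. Alternatives were DESeq2 1.42.0, other scaling factors, other filters, only the groups of a comparison, a replicate block, limma 3.58.1 on log2(FPKM + 1) and log2(FPKM + 0.1), an adjusted p under 0.10, leaving out each sample, and offsets for GC content and length of the longest GENCODE M21 transcript (natural splines, 5 degrees of freedom, 15648 genes). A fit without Sham_Saline replicate 2 and Sham_H2O2 replicate 3 was added after the data were seen. Named genes were all members, up to 5 called genes of each related list with the smallest p, and for each member the 2 genes most correlated with it; 1 gene under this rule is not reported here. The members and lists were chosen with earlier results of these data known. The libraries carried no stated molecular identifiers, so PCR copies are counted. Figures were drawn with matplotlib 3.10.9.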

Additional observations from a re-analysis of the deposited data

How the results depend on the processing

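Each group had 3 pools, depth differed 6.56-fold between libraries, and Tubb6 had the lowest counts among the members. Of 1540 refits of a member in a comparison under an alternative, 5 lost a call, 18 gained one, and 60 turned direction with a call or by more than their interval. The other 1457 kept their side of the threshold, and 81 of these changed sign within their interval, with no call in either fit. The fits without a filter are counted among the 1457, and they repeat the main fit because every gene passed the filter. The cause of the changes was not tested.

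Offsets for GC content and length turned the following log2 fold changes (with replicate block in brackets). SNA_Saline vs Sham_Saline: Nefm 0.289 (0.286), Nefh 0.200 (0.202), Ina 0.0920 (0.0904), Prph 0.0605 (0.0599), Tubb2a 0.246 (0.247). Sham_H2O2 vs Sham_Saline: Nefm 0.239 (0.246), Nefh 0.245 (0.251), Ina 0.185 (0.184), Prph 0.0492 (0.0487). DCA vs LAM: Nefh -0.251 (-0.261), Ina -0.219 (-0.221). SNA_NAC vs Sham_Saline: Nefm 0.367 (0.375), Nefh 0.260 (0.268), Ina 0.265 (0.263), Tubb2a 0.271 (0.271). Sciatic minus dorsal column: Nefm 0.631 (0.647), Nefh 0.451 (0.462), Ina 0.311 (0.311), Prph 0.0893 (0.0896), Tubb2a 0.330 (0.333). Sham_Saline vs LAM: Nefh -0.474 (-0.482), Ina -0.305 (-0.304), Prph -0.103 (-0.103), Tubb2a -0.00864 (-0.0100). Injured vs sham sciatic: Nefm 0.208 (0.207), Nefh 0.108 (0.109), Ina 0.0860 (0.0846), Prph 0.00130 (0.000923). Within their interval the offsets also changed the sign of Tuba1a 0.0618 (0.0628), Tubb3 0.0651 (0.0653) and Tubb2a 0.0244 (0.0244) in SNA_NAC vs SNA_Saline, Tubb2a 0.00459 (0.000764) and Tubb6 0.278 (0.276) in Sham_H2O2 vs Sham_Saline, Prph -0.0289 (-0.0297), Tubb2a -0.0838 (-0.0860) and Tubb6 -0.112 (-0.109) in DCA vs LAM, and Tubb3 0.0326 (0.0382) in injured vs sham sciatic. Without Sham_Saline replicate 2 and Sham_H2O2 replicate 3, an alternative chosen after seeing the data, Sham_H2O2 vs Sham_Saline turned for Prph (0.0152), Tubb3 (0.0981), Tubb2a (0.0911) and Tubb6 (0.319), and for the shares of Tubb2b (-0.265 percentage points), Tubb3 (0.731) and Ina (-0.0434).

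Genes called moved as follows. SNA_Saline vs Sham_Saline (430): DESeq2 863, only the groups compared 65, GC offsets 1167, with block 1014, adjusted p under 0.10 822, leaving out each sample 174 to 2548. SNA_NAC vs Sham_Saline (522): DESeq2 1222, only the groups 68, GC 1220, with block 1128, the 2 samples left out 279, p under 0.10 1288, each sample 215 to 5861. Sciatic minus dorsal column (254): DESeq2 1638, only the groups 151, block 118, GC 797, with block 636, p under 0.10 2398, each sample 55 to 4600. Sham_Saline vs LAM (11): DESeq2 1083, upper-quartile factors 7, at least 10 counts 4, only the groups 1, block 6, GC 26, with block 23, limma on log2(FPKM + 1) 5, the 2 samples left out 7, each sample 4 to 5009. Injured vs sham sciatic (819): only the groups 438, GC 1878, with block 1714, p under 0.10 1301, each sample 530 to 3154. The highest of each of these 5 ranges came without Sham_Saline replicate 1. The lowest came without SNA_Saline replicate 1 (SNA_Saline vs Sham_Saline and sciatic minus dorsal column), Sham_Saline replicate 2 (SNA_NAC vs Sham_Saline), LAM replicate 3 or Sham_Saline replicate 3 (Sham_Saline vs LAM) and SNA_NAC replicate 2 (injured vs sham sciatic). Where edgeR called 0, DESeq2 called 4 (Sham_H2O2 vs Sham_Saline) and 2 (DCA vs LAM), and GC offsets with block called 1 (DCA vs LAM). Members called were 1 for SNA_Saline vs Sham_Saline (0 with only the groups, 2 with GC offsets, also with block, 1 to 2 leaving out each sample) and 1 for SNA_NAC vs Sham_Saline (0, 2 and 2, and 0 to 3 in the same order). They were 0 for sciatic minus dorsal column (1 with GC offsets, also with block, with the 2 samples left out and at p under 0.10, and 0 to 2 leaving out each sample), 0 for Sham_Saline vs LAM (1 by DESeq2, 0 to 5) and 1 for injured vs sham sciatic (2 with GC offsets, also with block, 1 to 2).

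Same-numbered samples come from different mice. Their deviations correlated at 0.10, -0.65 and -0.17 between SNA_Saline and Sham_Saline, and above 0.1 in every pair only between Sham_Saline and LAM. With the replicate block no member's call changed.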
